A study of Homo sapiens with 3 samples.

Results

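The EGF family of ligands was represented by 10 genes chosen by name, EGF, TGFA, HBEGF, AREG, EREG, BTC, EPGN, NRG1, NRG2 and NRG4, out of 58735 genes in the deposited count table. All 10 had a row of their own. Their levels were read in RPE-1, a human epithelial cell line of the retinal pigment layer that telomerase has made immortal. Of the 10 ligands, 7 were detected, and HBEGF, which encodes heparin-binding EGF-like growth factor, was the highest per unit of transcript length at 18.5 ± 0.817 RPKM (SD, n = 3). EREG and NRG4 had no counts in any library, and EPGN had 1 count in all.

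EGF family ligands are made as proteins anchored in the cell membrane and are cut free by membrane proteases, after which they bind receptors of the ERBB family on the same or on nearby cells. EGF, TGFA, AREG and EPGN are known to bind EGFR, while HBEGF, BTC and EREG bind EGFR and ERBB4, and the neuregulins bind ERBB3 or ERBB4. Bound receptors pair with each other or with ERBB2, which has no ligand of its own, and signal through RAS and ERK. In epithelia these ligands are known for driving proliferation, migration and wound repair.

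The cells carried GFP-tagged Cetn2 as a mark of centrioles and a PLK4 gene under an rtTA, doxycycline-inducible promoter. All of them had received scramble siRNA by lipid transfection, and PLK4 was not induced. The 3 libraries form 1 group, named siControl_no_induction, so no comparison between conditions was possible. Whether the libraries came from separate cultures is not stated, so the tests below cover only the spread among the 3 libraries and part of that spread may be technical. The libraries held 46625774 to 60040029 counts of poly(A)-selected RNA. Library 1 stood apart, with counts in 19953 genes against 24416 in library 2 and 23050 in library 3, so results that rest on it are also given without it. Of 11 pigment epithelium markers 7 were detected, among them KRT8, KRT18, OTX2 and MITF, while TYR and TTR had 0 counts in each library and RPE65 had 8, 6 and 0 counts. Of 8 markers of other cells, PTPRC (0.225 ± 0.0841 RPKM) and PECAM1 (0.161 ± 0.0340 RPKM) were detected, and HBB and RBFOX3 had 0 counts in each library. The summed level of the 8 was 0.451, 0.407 and 0.390 RPKM in libraries 1, 2 and 3.

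Levels within a gene are given as CPM, the counts of a library rescaled to a total of 1000000, where the total is first adjusted by TMM, a factor that corrects for differences in composition. Levels between genes are given as RPKM, which is CPM per kilobase of merged annotated exons. A gene was called detected when it reached 1 CPM in all 3 libraries. By this rule 7 of the 10 ligands were detected, where 57.7% of all protein-coding genes and 21.5% of all genes were. In bulk RNA, fewer cells that express a gene and less RNA per cell cannot be told apart.

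**Figure D1:**
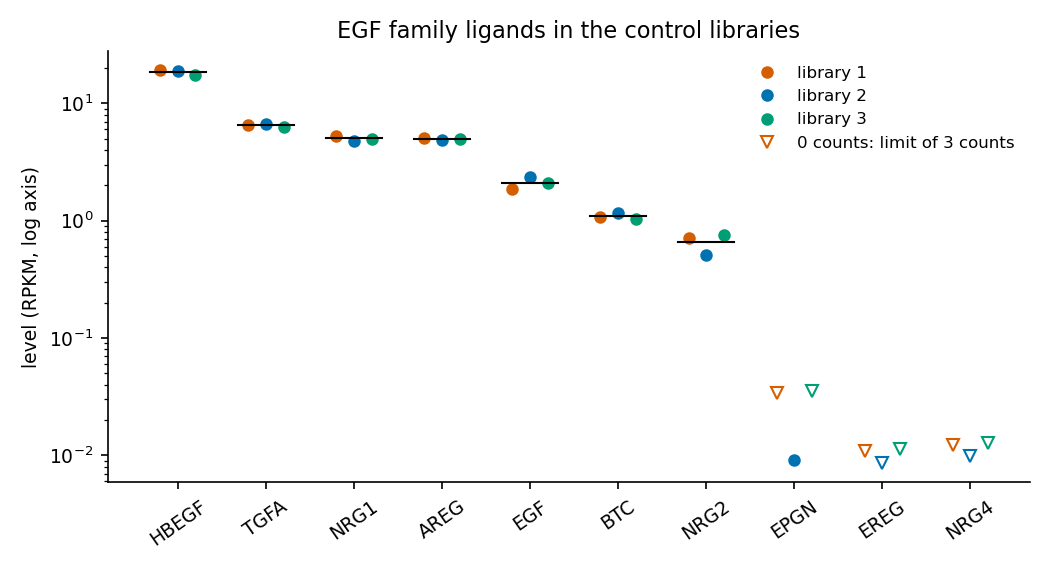
Level of each EGF family ligand in RPKM on a log axis, with 1 point per library, a line at the mean of each detected gene and an open triangle at the limit set by 3 counts where a library had 0 counts. The ligands run from 18.5 RPKM for HBEGF to 0.655 RPKM for NRG2, and EPGN, EREG and NRG4 lie far below.

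Of the family, 4 genes are neighbours on chromosome 4 and they differed sharply in level. EPGN, EREG, AREG and BTC lie within 486 kb of hg38, a stretch that holds 6 annotated genes, of which these 4 are the protein-coding ones. AREG, which encodes amphiregulin, had 402, 484 and 380 counts in libraries 1, 2 and 3, while EREG, the epiregulin gene, had 0 counts in each although it ends only 56.4 kb before AREG starts. With EREG set at a floor of 3 counts per library, AREG was at least 439-fold higher per unit of length in every library. BTC, which encodes betacellulin and lies 289.75 kb beyond AREG on the opposite strand, had 148, 201 and 135 counts. EPGN, the epigen gene, had 0, 1 and 0 counts and lies 49.8 kb before EREG. So the pair of genes at one end of the stretch was near or at 0, and the pair at the other end was expressed.

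**Figure D2:**
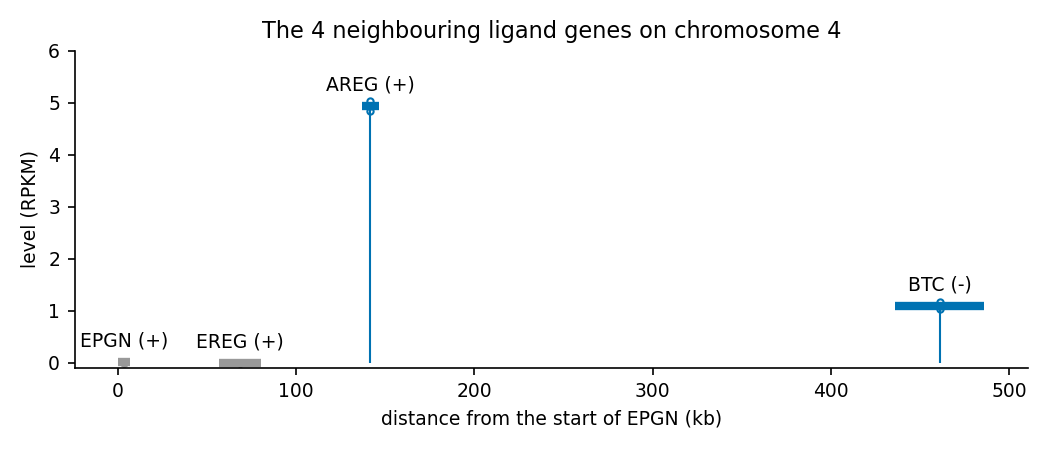
Levels of the 4 neighbouring ligand genes against their distance in kb from the start of EPGN. Thick bars span each gene at its mean RPKM, open circles are the 3 libraries, strands are in parentheses and grey marks genes below detection. AREG stands at 4.93 RPKM and BTC at 1.09 RPKM, while EPGN and EREG lie at the axis.

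The promoters of these neighbours are shown because their genes differ in level, together with that of HBEGF, the highest ligand per unit of length. Each is the 250 bases before the RefSeq start of the gene on GRCh38.p14, read 5′ to 3′ on the strand of the gene. Of the 10 ligands, 9 were matched to the RefSeq table and searched, and the promoter of NRG1 is not reported here. The windows are chr4:74308220-74308469 for EPGN, chr4:74364895-74365144 for EREG and chr4:74444886-74445135 for AREG, each on the plus strand, and chr4:74794524-74794773 for BTC and chr5:140346604-140346853 for HBEGF, on the minus strand. Capitals mark matches to 7 motifs searched on both strands. The cyclic AMP response element was searched as TGACGTCA. The AP-1 site, which FOS and JUN proteins bind, was TGANTCA. The TATA box was taken as TATAAA, and the GC box, bound by SP1, was taken as GGGCGG. The EGR site was GCGNGGGCG, which can overlap a GC box. The CCAAT box was searched by its own letters, and the CArG box of serum response factor is given by name.
EPGN: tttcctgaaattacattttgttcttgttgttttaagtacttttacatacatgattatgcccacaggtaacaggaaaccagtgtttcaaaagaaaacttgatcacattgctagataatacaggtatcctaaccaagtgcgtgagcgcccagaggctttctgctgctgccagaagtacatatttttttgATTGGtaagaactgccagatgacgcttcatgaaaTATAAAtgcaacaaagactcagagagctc
EREG: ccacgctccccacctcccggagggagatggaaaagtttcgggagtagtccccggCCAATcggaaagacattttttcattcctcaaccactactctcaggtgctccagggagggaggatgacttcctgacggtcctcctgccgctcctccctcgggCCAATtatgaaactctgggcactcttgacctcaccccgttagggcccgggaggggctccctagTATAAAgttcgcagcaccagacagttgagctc
AREG: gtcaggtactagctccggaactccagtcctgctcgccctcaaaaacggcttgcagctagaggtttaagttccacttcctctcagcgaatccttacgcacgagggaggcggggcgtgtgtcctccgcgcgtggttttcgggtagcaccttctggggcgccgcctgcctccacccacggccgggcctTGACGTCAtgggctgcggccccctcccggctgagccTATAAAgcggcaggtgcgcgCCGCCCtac
BTC: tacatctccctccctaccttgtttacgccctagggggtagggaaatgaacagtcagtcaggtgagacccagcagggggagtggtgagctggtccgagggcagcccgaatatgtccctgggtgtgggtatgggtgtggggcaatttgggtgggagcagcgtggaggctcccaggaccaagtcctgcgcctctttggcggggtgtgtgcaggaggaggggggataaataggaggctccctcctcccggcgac
HBEGF: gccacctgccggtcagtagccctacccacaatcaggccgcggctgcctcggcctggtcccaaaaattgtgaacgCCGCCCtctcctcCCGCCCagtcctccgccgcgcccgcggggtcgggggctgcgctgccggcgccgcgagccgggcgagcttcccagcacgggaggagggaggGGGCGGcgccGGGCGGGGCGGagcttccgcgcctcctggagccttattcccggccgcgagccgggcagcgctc

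TATAAA was present in EPGN, EREG and AREG, starting 29, 32 and 29 bases before the RefSeq start, whereas it was absent from the BTC and HBEGF windows. Among the windows not printed, NRG4 held it, 8 bases before its start. Over 35116 promoters of the same length, 10.7% held this motif. So the detected gene AREG and its neighbours near 0 shared these letters. TGACGTCA, the cyclic AMP response element, was found 65 bases before the start in AREG and in none of the other ligands matched, and 1.65% of all promoters held it. Among the printed windows, the GC box was found 5 times in HBEGF, where the 2 copies nearest the start share a base, and 1 time in AREG. It was also found 3 times at the first of 2 TGFA starts and 1 time at each NRG2 start, and 42.6% of all promoters held it. CCAAT was found in EPGN and EREG among the printed windows, and 32% of all promoters held it. The BTC window matched none of the motifs. RefSeq starts can differ from the ends of the genes in GENCODE, which gave gene positions. On the minus strand, the BTC gene reaches 74794686, inside its window, and the NRG4 gene reaches 76059795, beyond its window. Windows of other ligands, HBEGF among them, also overlap their genes in part or in full. The share of G and C was 76.4% in HBEGF, 65.2% in AREG, 62% in BTC, 58% in EREG and 38% in EPGN, with a median of 58% over all promoters. The EGF window, not printed, held the AP-1 motif 17 bases before the start, and 6.57% of all promoters held it. EGR sites (8.41% of all promoters) occurred, among the ligands matched, only at the second of 2 starts of NRG2, and CArG boxes (407 of 35116 promoters) in none. A match here is a description of the letters and not a site of binding.

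Among ligands that bind EGFR alone, TGFA, which encodes transforming growth factor alpha, was the highest. TGFA (ENSG00000163235, chromosome 2, 70447280 to 70554193, minus strand) had 1579, 2000 and 1464 counts, or 32.5, 32.9 and 31.3 CPM, in libraries 1, 2 and 3. The libraries were nearly level, and the mean was 6.50 ± 0.171 RPKM (SD, n = 3). AREG (ENSG00000109321, chromosome 4, 74445134 to 74455009, plus strand) stood at 8.28, 7.97 and 8.12 CPM. Its mean was 4.93 ± 0.0956 RPKM (SD, n = 3), the smallest relative spread among the detected ligands, with a coefficient of variation of 1.94%. Counting error alone gives AREG a 95% interval of 7.49 to 9.13 CPM in library 1, which covers all 3 values. The rank therefore does not show AREG to be a steadier gene. EGF (ENSG00000138798, chromosome 4, 109912884 to 110012266, plus strand) encodes the founding ligand as a long precursor with many EGF-like repeats. It stood at 11.5, 14.4 and 12.8 CPM, lowest in library 1 and highest in library 2. Its mean was 2.11 ± 0.236 RPKM (SD, n = 3). EPGN (ENSG00000182585, chromosome 4, 74308473 to 74315307, plus strand) was not detectable at this depth, since 3 counts correspond to 0.0618, 0.0494 and 0.0641 CPM in libraries 1, 2 and 3.

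Among ligands that bind EGFR and ERBB4, HBEGF and BTC were detected and EREG was not. HBEGF (ENSG00000113070, chromosome 5, 140332843 to 140346631, minus strand) had 2804, 3442 and 2482 counts, or 57.8, 56.7 and 53.1 CPM. Library 3 was the lowest, by a factor of 1.09 against library 1. Its level placed it at the 80.5 percentile of detected protein-coding genes by RPKM. BTC (ENSG00000174808, chromosome 4, 74744759 to 74794686, minus strand) stood at 3.05, 3.31 and 2.89 CPM, or 1.09 ± 0.0758 RPKM (SD, n = 3), at the 12.8 percentile. EREG (ENSG00000124882, chromosome 4, 74365143 to 74388751, plus strand) had 0 counts in each library. HBEGF was at least 1567-fold above EREG per unit of length, with EREG at the floor of 3 counts per library.

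Of the neuregulins, NRG1 was expressed well above NRG2, and NRG4 had no counts. NRG1 (ENSG00000157168, chromosome 8, 31639386 to 32767959, plus strand) is known for its many isoforms with different amino ends. It had 2924, 3312 and 2644 counts, or 60.2, 54.5 and 56.5 CPM, the most counts of any ligand in libraries 1 and 3. Its mean was 5.04 ± 0.256 RPKM (SD, n = 3) over 11328 bases of exon union. The 22 annotated transcripts of NRG1 reach at most 5931 bases, and with the longest transcript as the length its level was 9.63 RPKM. NRG2 (ENSG00000158458, chromosome 5, 139846779 to 140043299, minus strand) stood at 3.19, 2.29 and 3.40 CPM, lowest in library 2. Its mean was 0.655 ± 0.131 RPKM (SD, n = 3), and NRG1 exceeded it 7.78-fold, with a log2 ratio of 2.96 ± 0.26 (SD) and NRG1 higher in each. The NRG2 gene lies 289.5 kb from HBEGF on the same strand of chromosome 5. NRG4 (ENSG00000169752, chromosome 15, 75935969 to 76059795, minus strand) had 0 counts in each library, and NRG1 was at least 391-fold higher per unit of length with NRG4 at the floor of 3 counts. Exons of another gene on the opposite strand cover 38.1% of the exon length of NRG4 and 5.18% of that of NRG2. How reads there were assigned is not given in the sources used here. The bound of 391-fold holds only if the whole exon length of NRG4 was open to counting. The other 8 ligands share no exon base with another gene. NRG3, the remaining neuregulin and not among the 10, also had 0 counts in each library.

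Ordered by RPKM, the detected ligands ran HBEGF, TGFA, NRG1, AREG, EGF, BTC and NRG2. Ranges over the 3 libraries did not overlap between neighbours in this order, except for NRG1 (4.81 to 5.32 RPKM) and AREG (4.83 to 5.03 RPKM). HBEGF exceeded TGFA 2.85-fold (log2 ratio 1.51 ± 0.03 SD), and TGFA exceeded NRG1 1.29-fold (0.37 ± 0.08). AREG exceeded EGF 2.35-fold (1.23 ± 0.19), EGF exceeded BTC 1.92-fold (0.94 ± 0.13) and BTC exceeded NRG2 1.69-fold (0.76 ± 0.40). In each of these 5 pairs the higher gene was higher in 3 of 3 libraries. A two-sided exact sign-flip test over libraries gave p = 0.25 for each, the smallest that 3 libraries allow, and 0.3 after Benjamini-Hochberg adjustment over the 6 pairs. NRG1 was above AREG in 2 of 3 libraries (log2 ratio 0.03 ± 0.05, exact p = 0.5). The place of NRG1 depended on the length used. The log2 ratio of TGFA to NRG1 was -0.36 with the longest transcript and -0.82 without length. That of AREG to EGF was -0.66 without length, because AREG has 1648 bases of exon and EGF 6127. For NRG1 to AREG it was 0.55 with the longest transcript and 2.81 without length. For BTC to NRG2 it was 0.08 without length, and NRG2 was then higher in libraries 1 and 3.

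Summed over the 10 genes, ligand level was 39.7, 39.1 and 37.7 RPKM in libraries 1, 2 and 3. HBEGF made up 47.6 ± 0.842% of this sum (SD, n = 3), TGFA 16.7 ± 0.230%, NRG1 13.0 ± 0.586%, AREG 12.7 ± 0.361%, EGF 5.44 ± 0.648%, BTC 2.82 ± 0.163% and NRG2 1.69 ± 0.359%. Ligands that can bind EGFR thus held most of the sum, with 50.4 ± 0.923% in HBEGF, BTC and EREG and 34.9 ± 0.852% in those that bind EGFR alone. The neuregulins held 14.7 ± 0.924%. These shares depend on the length used, here the exon union. With the longest transcript as the length, NRG1 stood at 9.63 RPKM and HBEGF at 23.4 RPKM. Without length, NRG1 stood at 57.1 CPM and HBEGF at 55.8 CPM.

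The receptors for these ligands were unequal in the same cells. EGFR stood at 169.6, 163 and 165 CPM (13.2 ± 0.264 RPKM, SD, n = 3) and ERBB2 at 76.7, 96.6 and 91.5 CPM (8.56 ± 1.001 RPKM). ERBB3, which binds neuregulins but has little kinase activity of its own, was below detection with 54, 46 and 33 counts. ERBB4, the receptor shared by HBEGF, BTC, EREG and neuregulins, was below detection with 31, 13 and 26 counts. Per unit of length EGFR exceeded ERBB3 141-fold and ERBB4 397-fold, each in 3 of 3 libraries. HBEGF RNA exceeded EGFR RNA 1.40-fold, with a log2 ratio of 0.48 ± 0.06 (SD) and HBEGF above in each library, and TGFA lay below EGFR (log2 ratio -1.03 ± 0.05). NRG1 exceeded ERBB3, a receptor it binds, 53.5-fold (log2 ratio 5.74 ± 0.29).

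All 14 genes of the list for ligand release were detected, with a median of 13.6 RPKM. ADAM9 (99.5 ± 5.31 RPKM), ADAM19 (55.9 ± 11.6), both membrane metalloproteases, and FURIN (51.9 ± 8.31), a proprotein convertase, were the highest, and ADAM8 was the lowest (0.561 ± 0.146; SD, n = 3 each). ADAM17, the main known sheddase of TGFA, AREG and HBEGF, stood at 8.37 ± 0.265 RPKM, and ADAM9 exceeded it 11.9-fold. RHBDF1 and RHBDF2 encode the iRhom proteins that carry ADAM17 to the surface, and they stood at 9.42 ± 0.821 and 5.00 ± 0.272 RPKM. ADAM17, RHBDF1 and RHBDF2 were named after their values were seen. All 6 surface partners were detected, with a median of 49.96 RPKM. They were led by the heparan sulphate proteoglycan SDC1 (139 ± 12.5 RPKM), CD44 (68.9 ± 1.86) and SDC4 (55.3 ± 3.22), with SDC2 lowest (17.0 ± 1.20). CD9, a tetraspanin that binds the membrane form of HBEGF, stood at 193.6, 122.6 and 131.8 CPM and was highest in library 1. All 20 genes of signal relay were detected (median 10.6 RPKM), from the adaptor SHC1 (135 ± 10.5), the phosphatase PTPN11 (44.0 ± 2.41) and the kinase MAP2K2 (36.7 ± 2.96) down to BRAF (0.911 ± 0.0830). The last place of BRAF depends on the length used. Its exon union is 23432 bases and its longest transcript 9578, and by CPM it stood above PIK3R1 (21.3 against 15.1). Of 17 feedback genes 16 were detected (median 7.76 RPKM), led by the EGFR inhibitor ERRFI1 (29.4 ± 10.02), the ERK phosphatase DUSP5 (21.8 ± 4.84) and the ubiquitin ligase RNF41 (13.8 ± 1.51), with LRIG2 lowest (0.908 ± 0.157). SPRY1 was below detection with 61, 57 and 61 counts. The 7 detected ligands had a median of 4.93 RPKM, and all detected genes one of 5.54 RPKM.

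**Figure D3:**
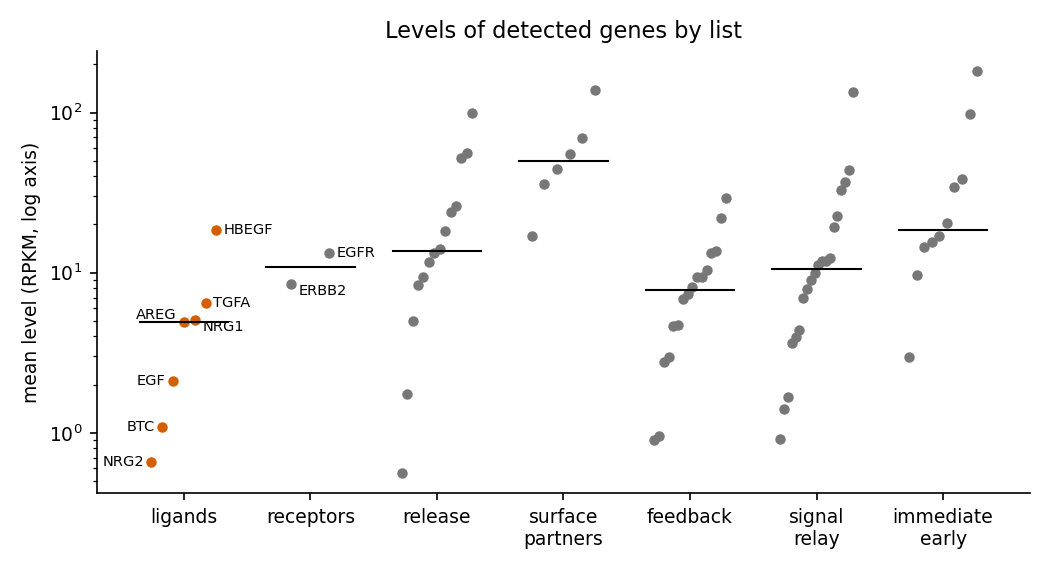
Mean level in RPKM on a log axis of the detected genes of each list, with 1 point per gene and a line at the median of the list. Ligands are in orange and the genes of the other lists in grey. HBEGF lies above EGFR, and the other detected ligands lie below EGFR and ERBB2.

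The detected ligands differed between libraries by 1.04-fold for AREG to 1.49-fold for NRG2. The spread of each gene was set against counting error by a chi-square test on the 3 counts, adjusted by Benjamini-Hochberg over the 16293 genes whose mean count reached 10, and called at 0.05. Of the 7 ligands tested, 4 were called, or 57.1%, where 68.6% of all tested genes were, so the share among ligands was no larger than the background. The called ligands were EGF (adjusted p = 3.68e-04), NRG1 (8.10e-04), NRG2 (0.00249) and HBEGF (0.00924). TGFA (0.368), BTC (0.499) and AREG (0.866) were not called. A call depends on the number of counts as well as on the spread. BTC, with 135 to 201 counts, had a wider ratio than NRG1 and HBEGF, which had at least 2482 counts in each library. The ratio of the highest to the lowest CPM was 1.49 for NRG2, 1.25 for EGF, 1.15 for BTC, 1.105 for NRG1, 1.09 for HBEGF, 1.05 for TGFA and 1.04 for AREG. The median ratio was 1.105 for the 7 ligands and 1.25 for all tested genes. Each of the 4 calls rested on few libraries. Without library 1 the adjusted p was 0.0884 for EGF and 0.322 for NRG1, without library 2 it was 0.107 for EGF and 0.661 for NRG2, and without library 3 it was 0.808 for HBEGF. When every gene was allowed a further coefficient of variation of 0.05, NRG2 was the only ligand still called (adjusted p = 0.0310), where 32.7% of all tested genes were called. Estimated in common over the expressed genes of these 3 libraries, the coefficient of variation beyond counting error was 0.135. That is larger than the tolerance, and the call of NRG2 was not tested at that value.

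**Figure D4:**
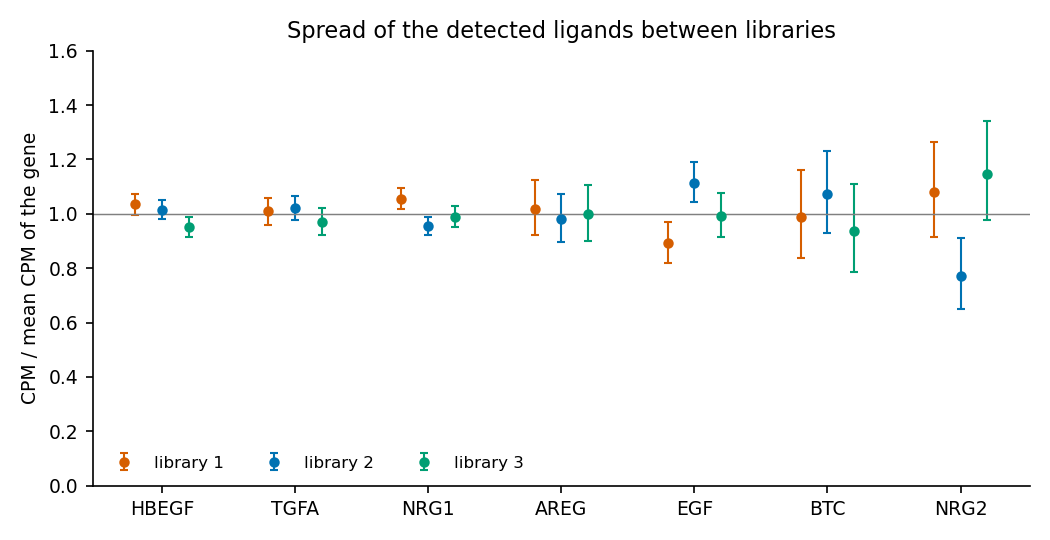
CPM of each detected ligand in each library divided by the mean CPM of the gene, with exact Poisson intervals at 95% that cover counting error only. Library 2 is lowest for NRG2, library 1 is lowest for EGF, and the 3 libraries of AREG and TGFA lie close to their means.

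Immediate early genes, which respond to ERK signalling, were highest in library 1. All 12 were called, where 68.6% of all tested genes were, and all 12 were highest in library 1, where 27.9% of all tested genes were called and highest there. This list, like the other pathway lists, was chosen with earlier results of these data known. Its shares describe the list and are not a test of it. With totals left unscaled, 11 of the 12 were highest in library 1, and 9 of the 12 were called between libraries 2 and 3 alone, where 28.1% of all tested genes were. FOSL1 (182 ± 32.7 RPKM), IER3 (98.5 ± 25.6) and JUNB (38.7 ± 16.2) had the highest levels of the list, and FOS the lowest among those detected (2.96 ± 1.26; SD, n = 3 each). EGR3, a transcription factor gene, had 440, 83 and 29 counts in libraries 1, 2 and 3 and was below detection, as was EGR2 with 250, 79 and 44 counts. Of the 17 feedback genes, 16 were called, against the same background of 68.6%, and they went both ways. In library 1, 9 of them were highest (27.9% of all tested genes were called and highest there) and 6 were lowest (33.4% were called and lowest there). Without library 1, 10 of the 17 were called, where 28.1% of all tested genes were. SPRY4, an inhibitor of signalling from receptor tyrosine kinases to ERK, stood at 31.6, 14.5 and 12.1 CPM in libraries 1, 2 and 3 (adjusted p = 2.33e-126, chi-square test, and 0.00530 without library 1). DUSP6, a phosphatase of ERK that was named after its values were seen, stood at 71.6, 31.4 and 27.9 CPM.

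Of the ligand-release genes 13 of 14 were called (68.6% of all tested genes), and 11 were called and lowest in library 1, where 33.4% of all tested genes were. ADAM8 had the widest ratio among them, 1.71. Without library 1, 7 of the 14 were called (28.1% of all tested genes), and ADAM8 was not (adjusted p = 0.125). Of the receptors, ERBB2 (adjusted p = 6.42e-27, chi-square test), ERBB4 (0.00348) and EGFR (0.0460) were called and ERBB3 (0.0805) was not, and 2 were called with the further coefficient of variation. Without library 1, ERBB2 (adjusted p = 0.0278) and ERBB4 (0.0163) were called and EGFR was not (0.629). The receptors called were 1 of 4 without library 2 and 2 of 4 without library 3. Over all genes, 9159 and 10016 were called in these settings, against 11182 with all 3 libraries. All 6 surface partners were called, where 68.6% of all tested genes were, with the widest ratio for CD9 (1.58). Without library 1, 4 of the 6 were called, where 28.1% of all tested genes were. Against counting error alone, a gene with many counts is called at a smaller ratio. The shares of the lists and of all tested genes were not matched for counts. All 20 genes of signal relay were called, at ratios from 1.05 upward, where 68.6% of all tested genes were. Among them PIK3R1, the regulatory subunit of PI3 kinase, had the widest ratio (18.1, 11.7 and 15.7 CPM), and 10 of the 20 were called without library 1, where 28.1% of all tested genes were. With the further coefficient of variation, 32.7% of all tested genes, 1 of the 20 relay genes and all 12 immediate early genes were called, and the difference between these lists was not tested. The median deviation of library 1 from the mean of the 3 libraries, on the log2(CPM + 0.5) scale, was 0.03 for the ligands, 0.60 for immediate early genes, 0.12 for feedback genes, -0.10 for release genes and -0.01 for all tested genes. Among the 7 ligands that deviation ran from -0.15 for EGF to 0.11 for NRG2. Markers of other cells moved little in sum between the libraries, but the 2 that were detected moved in opposite directions. PTPRC had its highest count in library 1 (143, against 93 and 80 in libraries 2 and 3). Its spread was called (adjusted p = 9.60e-07, chi-square test), also with the further coefficient of variation (9.20e-05). PECAM1 had its lowest count in library 1 (49, against 93 and 56), and its spread was not called (adjusted p = 0.0684, chi-square test). Without library 1, neither PTPRC nor PECAM1 was called, where 28.1% of all tested genes were. The part of library 1 in these differences was not tested.

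**Figure D5:**
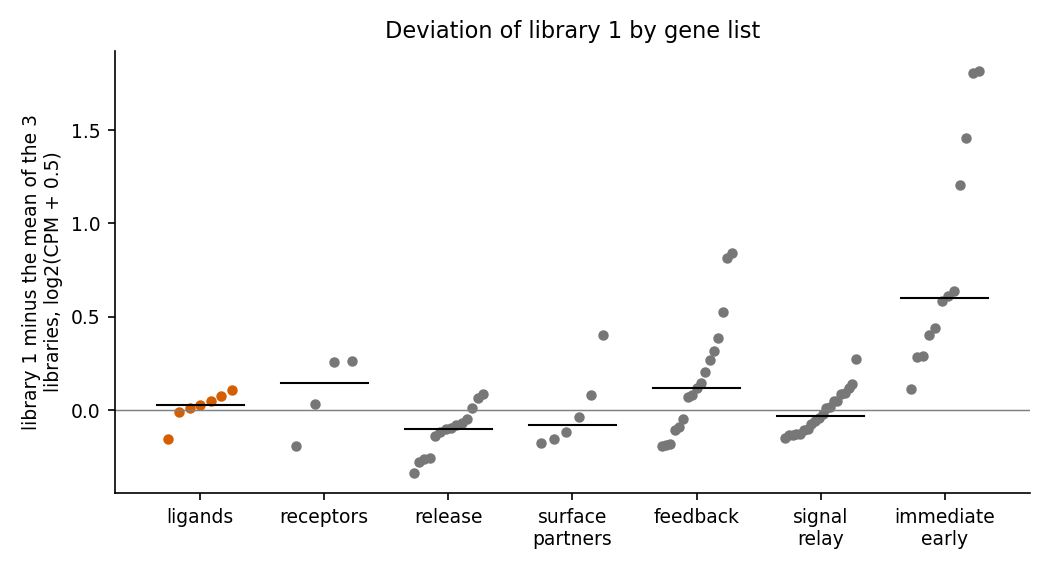
Deviation of library 1 from the mean of the 3 libraries in log2(CPM + 0.5), with 1 point per tested gene and a line at the median of each list. Ligands (orange) lie between -0.15 and 0.11, while immediate early genes lie between 0.11 and 1.82.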

How the data were processed

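Poly(A) RNA of the 3 libraries was sequenced (RPE-1 cells), and the authors deposited raw whole-number counts of reads per gene. Tools named, per the submitters' processing notes, are STAR 2.5.2a, featureCounts 1.6.2 and cutadapt 1.16, on hg38. The annotation, the strand setting and the handling of reads with several alignments are not stated. A further 6 columns of counts matched no sample label and were not used. All 58735 identifiers matched GENCODE release 29, which gave positions and exon lengths, and 58449 symbols were equal.

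TMM factors came from edgeR 4.0.16 in R 4.3.3 and alternative size factors from DESeq2 1.42.0. With 1 group, no model between conditions was fitted. The chi-square test had 2 degrees of freedom and ran over the 16293 genes with a mean count of 10 or more. Ratios between genes used a pseudocount of 0.5 count. Library totals were 49279692, 60040029 and 46625774, and a count of 0 allows up to 3 counts. Such limits and the intervals hold for counting error alone, as reads are not independent molecules.

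The ligands, the 6 pathway lists (73 genes) and the 2 marker lists were chosen with earlier results of these data known. The text names all 10 ligands and the 4 receptors. From each other pathway list it names the 3 highest genes, the lowest detected, the called gene with the widest ratio and those below detection. Exceptions are named where they appear, and marker genes were named after their values were seen. Genes with the nearest profile were taken for the 3 called ligands with the widest ratio. Alternatives were the scaling, the count filter, an extra coefficient of variation, the length, the pseudocount, the detection limit and leaving out each library.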

Additional observations from a re-analysis of the deposited data

How the results depend on the processing

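The number of detected ligands was 7 under each alternative tried, which were both other scalings, a limit of 0.5 CPM and leaving out each library. With an extra coefficient of variation of 0.05, 1 ligand, 31 of 73 pathway genes and 5322 of all genes had a spread that was called, against 4, 70 and 11182 without it. The tolerance was the only change. Leaving out 1 library gave 2 to 3 ligands, 42 to 63 pathway genes and 4581 to 10016 genes, and the lowest numbers of pathway genes and of all genes came without library 1. Other scalings and the lack of a count filter kept these counts within 1.5 times. Of 36 alternative values of the 6 ratios between neighbouring ligands, 33 kept their direction. The log2 ratio of TGFA to NRG1 was -0.36 with the longest transcript and -0.82 without length, and that of AREG to EGF was -0.66 without length, since the genes differ in length. HBEGF was highest in library 1 with TMM and DESeq2 factors and in library 2 with unscaled totals. No paired analysis was possible because the labels give 1 group. Depth limits EPGN, EREG and NRG4, for which up to 3 counts per library cannot be told from 0. No group had the 4 samples needed for a test of single outlying samples.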

Other observations

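The genes nearest to a ligand in profile over the 3 libraries were found by Euclidean distance between deviations in log2(CPM + 0.5), among 12615 detected genes. For NRG2 they were RBPMS2 (distance 0.0184), GOLGA8N (0.0350) and CYCS (0.0391). RBPMS2 stood at 2.37, 1.66 and 2.48 CPM in libraries 1, 2 and 3 and was also lowest in library 2, where NRG2 stood at 2.29 CPM. GOLGA8N belongs to a family of near-identical copies, and its counts are uncertain. For EGF they were GPR78 (distance 0.00201), DDX49 (0.00299) and MAMLD1 (0.00368), and for NRG1 they were MPDZ (distance 8.05e-04), HSPA14 (0.00454) and the pseudogene CROCCP2 (0.00468). With 3 libraries such profiles are shared widely. Within a distance of 0.05 there were 6 detected genes for NRG2, 336 for EGF and 633 for NRG1.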
